A study of Homo sapiens with 19 samples.

Results

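The expression of 10 genes of YAP and TEAD signalling was measured after knockdown of INO80 or MCRS1 and after treatment with EPZ-6438 in the liver cancer line HepG2. The 10 genes, YAP1, WWTR1, CTGF, CYR61, ANKRD1, AMOTL2, AJUBA, LATS2, TEAD1 and AXL, were taken by symbol from 34825 symbols in each of the 2 deposited tables. All 10 were found in both tables, and all 10 passed the filter on low values (an average normalized count of 10 or more within an experiment). The choice of genes did not use their measured values, but it was made with earlier results of these data known.

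In the INO80 experiment, 9 libraries came from HepG2 cells that received 50 nM of a non-targeting siRNA (NTG) or 1 of 2 INO80 siRNAs, siINO80#1 or siINO80#2, with 3 libraries per group and harvest at 72 h. INO80 is the ATPase of the INO80 chromatin remodelling complex. In the EPZ-6438 experiment, 10 libraries came from cells kept in DMSO or in 1 µM EPZ-6438, which inhibits EZH2, the enzyme that methylates H3K27. The treatment began 3 days ahead of a transfection with 50 nM of NTG or siMCRS1, an siRNA to MCRS1, a subunit of the same complex. Harvest was at 72 h here as well. This experiment had 2 libraries of DMSO with NTG, 3 of DMSO with siMCRS1, 3 of EPZ-6438 with NTG and 2 of EPZ-6438 with siMCRS1. MCRS1 was targeted by a single siRNA condition, all groups come from 1 cell line, and the sources used here do not say that replicate libraries were separate cultures, so that p-values measure the spread between libraries.

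YAP (YAP1) and TAZ (WWTR1) are transcriptional coactivators that enter the nucleus and bind TEAD factors when the Hippo kinases are inactive. The kinases MST1 and MST2 (STK4 and STK3) activate LATS1 and LATS2, which phosphorylate YAP and TAZ and hold them in the cytoplasm. In the liver, this pathway limits organ size, and genes such as CTGF, CYR61 and ANKRD1 are widely used as readouts of YAP activity. LATS2 and AMOTL2 are both targets and inhibitors of YAP, which makes them part of a negative feedback.

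Libraries of the INO80 experiment held 17093574 to 25369547 recovered reads and those of the EPZ-6438 experiment 26038505 to 47397233, and 3 reads were worth between 2.13 and 4.30 normalized counts (counting error only). All 10 genes lay far above this in every library. The targeted genes followed the labels: INO80 was 1260 ± 82.2 (SD, n = 3) in NTG, 608 ± 31.3 with siINO80#1 and 460 ± 21.7 with siINO80#2, and MCRS1 went from 1430 ± 208 (n = 2) to 114 ± 28.5 (n = 3) in DMSO and from 1360 ± 166 (n = 3) to 108 ± 24.8 (n = 2) in EPZ-6438. INO80 itself fell by 0.27 on the log2 scale with siMCRS1 in DMSO (adjusted p = 0.039) and by 0.35 in EPZ-6438 (adjusted p = 0.0097). In replicate C of siINO80#2, the mitochondrial transcript MT-CO1 took 4.02% of the normalized total, against 2.00 to 2.24% in the other libraries of this experiment where it was the most abundant gene.

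TEAD factors bind the sequence GGAATG and its reverse complement CATTCC, and the promoters of the members were searched for both. RefSeq promoters (GRCh38.p14, 250 bases before to 50 after each gene start) were matched for 8 of the 10 members, and those of CYR61 and TEAD1 were not matched. At least 1 match to GGAATG or CATTCC was found for 7 of these 8 members, in 7 of their 12 promoters, and none was found for WWTR1. Of all 35116 promoters of this length, 14.0% held a match, 1.37% held at least 2 and 0.128% held at least 3. The 250 bases before the gene start are shown for CTGF and ANKRD1, the only members with more than 1 match, and 30 bases around the match are shown for the other 5. Capitals mark the matches, and each sequence is written 5′ to 3′ on the strand of its gene.
CTGF, chr6:131951373-131951622, minus strand: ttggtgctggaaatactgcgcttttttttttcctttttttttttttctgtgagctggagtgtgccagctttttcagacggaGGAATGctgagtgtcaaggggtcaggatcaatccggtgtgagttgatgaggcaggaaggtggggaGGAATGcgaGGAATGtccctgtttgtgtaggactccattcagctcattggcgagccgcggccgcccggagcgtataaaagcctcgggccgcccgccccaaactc
ANKRD1, chr10:90921088-90921337, minus strand: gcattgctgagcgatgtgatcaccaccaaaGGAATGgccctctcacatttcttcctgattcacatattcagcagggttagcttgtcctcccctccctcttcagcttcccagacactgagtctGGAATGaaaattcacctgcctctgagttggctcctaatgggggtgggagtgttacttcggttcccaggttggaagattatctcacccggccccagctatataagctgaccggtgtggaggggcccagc
YAP1, chr11:102110273-102110302, plus strand: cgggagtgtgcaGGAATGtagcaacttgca
AJUBA, chr14:22976884-22976913, minus strand: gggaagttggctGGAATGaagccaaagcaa
LATS2, chr13:21061560-21061589, minus strand: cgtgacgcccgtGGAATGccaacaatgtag
AMOTL2, chr3:134374499-134374528, minus strand: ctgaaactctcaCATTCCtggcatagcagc
AXL, chr19:41226531-41226560, plus strand: cagactttgcacCATTCCactccctccgct

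CTGF (current symbol CCN2) held 3 matches, 169, 104 and 95 bases before its start, the last pair separated by only a few bases. ANKRD1 held matches 220 and 128 bases before its start. The match of YAP1 lay 162 bases before the start, that of AJUBA 59 before its second annotated start, that of AMOTL2 69 before its second start and that of AXL 212 before its second start. The match of LATS2 lay 10 bases after the start. These matches describe the letters of the promoters, and binding was not measured in the tables used here.

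Levels per kilobase of the canonical transcript were used to rank the members, since normalized counts grow with transcript length. In NTG cells of the INO80 experiment, ANKRD1 (1610 ± 227 normalized counts per kb, SD, n = 3) and CTGF (1500 ± 122) were the most abundant and overlapped each other. AJUBA followed at 1180 ± 31.7 and YAP1 at 909 ± 102. CYR61 (565 ± 130) and WWTR1 (474 ± 37.9) overlapped, and LATS2 (135 ± 8.96), AMOTL2 (126 ± 5.36) and AXL (123 ± 26.2) were not separated by their libraries. TEAD1, at 83.5 ± 8.14, was the least abundant per kb. Its canonical transcript is the longest of the members (9417 bases), and which transcripts these cells express was not checked. With siINO80#1, CTGF stood alone at the head of this order with 2660 ± 251 per kb, whereas with siINO80#2 YAP1 (1430 ± 77.2), CTGF (1400 ± 121) and ANKRD1 (1260 ± 271) overlapped. In DMSO with NTG in the EPZ-6438 experiment the head of the order was ANKRD1 (5020 ± 954 per kb, n = 2), followed by CTGF (2030 ± 166) and YAP1 (1940 ± 162), which overlapped. The tables were scaled separately, so levels are not compared between the experiments.

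To ask whether loss of INO80 changes these genes, each INO80 siRNA was compared with NTG. With siINO80#1, 6 of the 10 members rose and 1 fell (limma on log2(normalized count + 1), Benjamini-Hochberg adjusted p under 0.05), while 20.7% of the 14034 genes tested rose and 20.8% fell. With siINO80#2, 5 members rose and 2 fell, against 26.6% and 28.4% of all tested genes. The median difference of the members was 0.41 and 0.33 on the log2 scale, and that of all tested genes was 0 in both. YAP1, WWTR1, LATS2 and TEAD1 rose with both siRNAs and AJUBA fell with both. Both comparisons share the NTG libraries. Scaling each library to equal totals moved the median of all genes to -0.08 with siINO80#1 and -0.11 with siINO80#2, and the share of calls that were higher moved from 49.9% to 39.8% and from 48.3% to 38.7%.

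**Figure D1:**
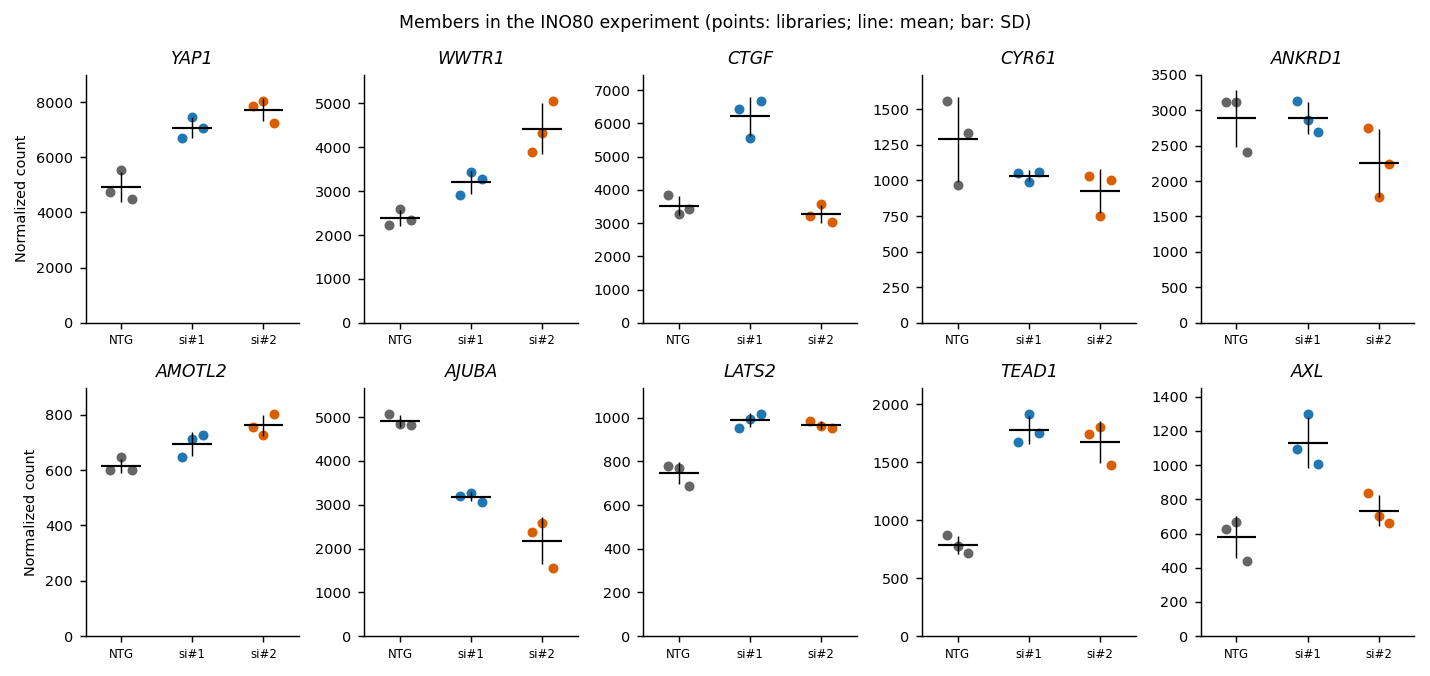
Normalized counts (y axis, from 0) of the 10 members in the 9 libraries of the INO80 experiment. Each point is a library of NTG, siINO80#1 (si#1) or siINO80#2 (si#2), the line is the group mean and the bar the SD. YAP1, TEAD1, LATS2 and WWTR1 lie above NTG with both siRNAs, AJUBA lies below, and CTGF stands apart only with siINO80#1.

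Both coactivators rose. YAP1 measured 4726, 5528 and 4476 normalized counts in NTG replicates A, B and C, 6683, 7466 and 7077 with siINO80#1, and 7872, 8034 and 7244 with siINO80#2. All 6 knockdown libraries lay above all 3 NTG libraries. The difference was 0.53 ± 0.09 (log2, SE) with siINO80#1, a fold of 1.45 (adjusted p = 0.00082), and 0.66 ± 0.09 with siINO80#2, a fold of 1.58 (adjusted p = 0.00011). WWTR1, which encodes TAZ, measured 2232, 2601 and 2334 in NTG, 2913, 3431 and 3269 with siINO80#1, and 3898, 4335 and 5053 with siINO80#2. The 3 groups did not overlap and were ordered NTG, siINO80#1, siINO80#2. WWTR1 rose by 0.42 ± 0.10 with siINO80#1 (adjusted p = 0.0078) and by 0.89 ± 0.10 with siINO80#2 (adjusted p = 4.3e-05).

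TEAD1, a DNA-binding partner of YAP and TAZ, changed most among the members that rose with both siRNAs. It measured 868, 777 and 715 in NTG, 1670.4, 1912 and 1754 with siINO80#1, and 1741, 1807 and 1472 with siINO80#2. The lowest knockdown library lay well above the highest NTG library, and the siRNA groups overlapped each other. TEAD1 rose by 1.18 ± 0.10 with siINO80#1 (fold 2.26, adjusted p = 1e-05) and by 1.09 ± 0.10 with siINO80#2 (fold 2.12, adjusted p = 8.2e-06). The other TEAD genes did not move as one. TEAD2 went from 222, 277 and 263 in NTG to 749, 784 and 783 with siINO80#1 and to 1124, 896 and 1085 with siINO80#2, the largest change among the TEAD factors (log2 difference 1.61 and 2.02). TEAD4 fell, by 0.48 with siINO80#1 (adjusted p = 0.0012) and by 0.66 with siINO80#2 (adjusted p = 7.9e-05). TEAD3 did not pass the test with either (0.26 and 0.16).

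CTGF, a secreted matrix protein and the target gene most often used to read YAP activity, differed between the siRNAs. It measured 3833, 3284 and 3427 in NTG, 6424, 5550.2 and 6666 with siINO80#1, and 3202, 3585 and 3035 with siINO80#2. Every siINO80#1 library lay above every library of the other 2 groups, which overlapped each other. CTGF rose by 0.82 ± 0.09 with siINO80#1 (fold 1.77, adjusted p = 7.6e-05), and with siINO80#2 the difference was -0.10 (95% interval -0.31 to 0.11, adjusted p = 0.38). The direct comparison of siINO80#2 with siINO80#1 gave -0.92 ± 0.09 (adjusted p = 0.00021). INO80 itself also differed between the siRNAs, with -0.40 for siINO80#2 against siINO80#1 (log2 difference, adjusted p = 0.0058).

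CYR61 (current symbol CCN1), a matricellular protein related to CTGF, did not follow CTGF. It measured 1557, 971 and 1335 in NTG, 1053, 989 and 1059 with siINO80#1, and 1029.8, 747 and 1000.5 with siINO80#2. Both siRNA groups overlapped NTG, whose libraries were widely spread. CYR61 fell by 0.46 ± 0.16 with siINO80#2 (adjusted p = 0.034), and with siINO80#1 the difference was -0.29 (95% interval -0.66 to 0.07, adjusted p = 0.19). The call with siINO80#2 was lost without NTG replicate A (-0.31), NTG replicate C (-0.42) or siINO80#2 replicate B (-0.32), without the trend, and with only the groups compared. With siINO80#1 a call was gained without NTG replicate B (-0.48) and in the fit with a replicate block, while without NTG replicate A the difference was -0.14. ANKRD1, a nuclear ankyrin repeat protein, measured 3123, 3115 and 2416 in NTG, 3129, 2859 and 2687 with siINO80#1, and 2745, 1775 and 2245 with siINO80#2. These groups overlapped. The difference was 0.01 with siINO80#1 (95% interval -0.32 to 0.34) and -0.37 with siINO80#2 (95% interval -0.70 to -0.04, adjusted p = 0.059). A call with siINO80#2 was gained without siINO80#2 replicate A (-0.52) or NTG replicate C (-0.49), and also with equal totals (-0.48), quantile normalization (-0.40), DESeq2 (-0.35) and the replicate block (-0.37). Without siINO80#2 replicate B the difference was -0.21.

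Among the members that act on YAP, LATS2 rose and AJUBA fell. LATS2 measured 781, 769 and 689 in NTG, 953, 995 and 1015 with siINO80#1, and 987, 960.4 and 955 with siINO80#2. The lowest knockdown library exceeded the highest NTG library, and LATS2 rose by 0.41 ± 0.07 and 0.38 ± 0.07 (adjusted p = 0.0011 for each). AMOTL2, an angiomotin family member that binds YAP at junctions, measured 600.0, 646 and 601 in NTG, 646, 711 and 728 with siINO80#1, and 757, 726 and 801 with siINO80#2. AMOTL2 rose by 0.31 ± 0.08 with siINO80#2 (adjusted p = 0.0066), but not with equal totals (0.20). With siINO80#1 the difference was 0.17 (95% interval 0.00 to 0.35, adjusted p = 0.099). The highest NTG library (645.7) and the lowest siINO80#1 library (646.2) nearly touched. AJUBA, a LIM protein that restrains LATS kinases, measured 5064, 4839 and 4830.0 in NTG, 3206, 3264 and 3065 with siINO80#1, and 2378, 2579 and 1564 with siINO80#2. The 3 groups did not overlap, and the lowest value was in siINO80#2 replicate C, the library with the high share of MT-CO1. AJUBA fell by 0.63 ± 0.15 with siINO80#1 (adjusted p = 0.0064) and by 1.21 ± 0.15 with siINO80#2 (adjusted p = 5.8e-05). Without replicate C of siINO80#2 the difference was -0.99, and 7 members were still called in that comparison.

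AXL, a receptor tyrosine kinase and a reported YAP target, measured 626, 670.3 and 438 in NTG, 1095, 1297 and 1004 with siINO80#1, and 836, 701 and 661 with siINO80#2. Only the siINO80#1 libraries were clear of NTG. AXL rose by 0.98 ± 0.16 with siINO80#1 (fold 1.98, adjusted p = 0.00069), and with siINO80#2 the difference was 0.36 (95% interval 0.00 to 0.71, adjusted p = 0.081). A call with siINO80#2 was gained without NTG replicate B (0.48), with quantile normalization (0.42) and with the replicate block (0.36). Without NTG replicate C the difference was 0.17.

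The siRNAs were also compared with each other, which asks where the members depend on the siRNA. Of the 10 members 1 was higher and 3 were lower with siINO80#2 than with siINO80#1, against 9.48% and 12.6% of all tested genes. WWTR1 was higher by 0.46 (adjusted p = 0.011). CTGF was lower as given above, AJUBA fell further by 0.58 (adjusted p = 0.019), and AXL was lower, with a difference of -0.63 (adjusted p = 0.019). The calls of AJUBA and AXL were lost without siINO80#1 replicate A (-0.57 and -0.65) or B (-0.56 and -0.52). AJUBA was called without siINO80#2 replicate C as well, but the difference was then -0.36 (adjusted p = 0.0033). For TEAD1 and LATS2 the difference between the siRNAs was -0.09 (95% interval -0.31 to 0.13) and -0.03 (-0.19 to 0.13).

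To ask what MCRS1 loss does to the same genes, siMCRS1 was compared with NTG within each treatment. In DMSO 8 members rose and 1 fell, against 23.1% and 24.6% of the 14312 genes tested. In EPZ-6438 8 members rose and 2 fell, against 26.8% and 26.9%. The median difference of the members was 0.80 and 1.00 on the log2 scale, and 0 and 0.01 over all tested genes. YAP1, WWTR1, CTGF, CYR61, ANKRD1, AMOTL2, LATS2 and TEAD1 rose in both treatments. No member's siMCRS1 libraries overlapped its NTG libraries in either, which includes AXL in DMSO, where it was not called. The share of all tested genes with such a separation was not computed, and groups of 2 and 3 libraries separate easily. With equal totals the median of all genes moved to -0.23 in both treatments, the share of calls that were higher went from 48.4% to 27.1% in DMSO and from 49.9% to 30.2% in EPZ-6438, and all 10 members were called in EPZ-6438. In DMSO 9 were called with equal totals, where CYR61 (0.52) lost its call and AXL (-0.48) gained one.

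**Figure D2:**
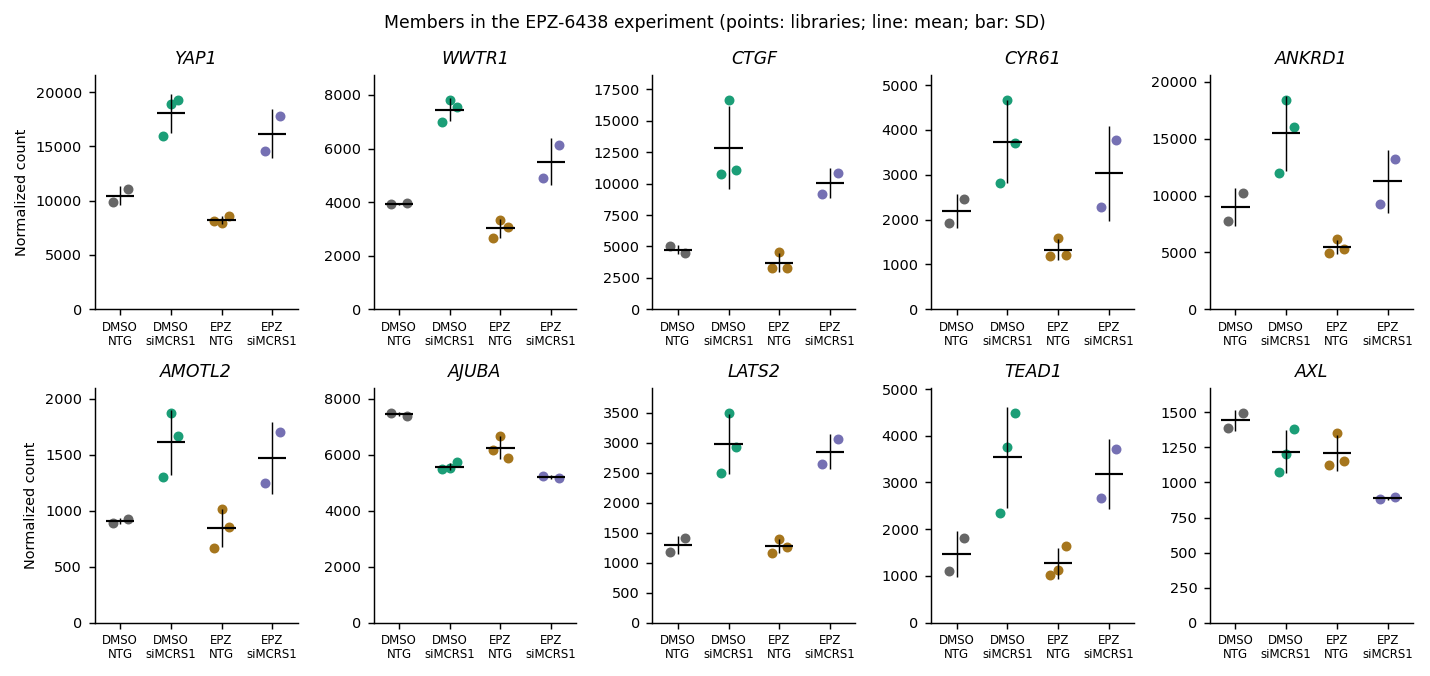
Normalized counts (y axis, from 0) of the 10 members in the 10 libraries of the EPZ-6438 experiment. Each point is a library, the line is the group mean and the bar the SD. In both treatments YAP1, WWTR1, CTGF, CYR61, ANKRD1, AMOTL2, LATS2 and TEAD1 are higher with siMCRS1 than with NTG, and AJUBA is lower.

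The target genes CTGF, CYR61 and ANKRD1 all rose with siMCRS1. CTGF measured 5024 and 4474 in DMSO with NTG and 10775, 16678 and 11109 with siMCRS1, and in EPZ-6438 it measured 3306, 4582 and 3272 with NTG and 9211 and 10862 with siMCRS1. The lowest siMCRS1 library held more than any NTG library of either treatment. CTGF rose by 1.41 ± 0.20 (log2, SE) in DMSO, a fold of 2.66 (adjusted p = 0.00028), and by 1.45 ± 0.20 in EPZ-6438, a fold of 2.72 (adjusted p = 0.00017). CYR61 measured 1916 and 2460.3 in DMSO with NTG, 2827, 4674 and 3708 with siMCRS1, 1187, 1595 and 1213 in EPZ-6438 with NTG, and 2287 and 3779 with siMCRS1. The groups were separate within each treatment, and the siMCRS1 libraries were widely spread. CYR61 rose by 0.75 ± 0.25 in DMSO (adjusted p = 0.027) and by 1.16 ± 0.25 in EPZ-6438 (fold 2.23, adjusted p = 0.0025). The DMSO call was lost without DMSO NTG replicate 1 (0.57), DMSO siMCRS1 replicate 2 (0.58) or replicate 3 (0.74), with equal totals (0.52), with quantile normalization (0.60) and without the trend (0.75).

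ANKRD1 measured 7786 and 10201 in DMSO with NTG, 11941, 18430.0 and 16017 with siMCRS1, 4942, 6192 and 5312 in EPZ-6438 with NTG, and 9291 and 13199 with siMCRS1. The siMCRS1 libraries lay above the NTG libraries of the same treatment. ANKRD1 rose by 0.77 ± 0.20 in DMSO (adjusted p = 0.0097) and by 1.02 ± 0.20 in EPZ-6438 (adjusted p = 0.0017). The DMSO call was lost without DMSO NTG replicate 1 (0.58) and with quantile normalization (0.45).

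The coactivators and TEAD1 rose as well. YAP1 measured 9836 and 11076 in DMSO with NTG, 15988, 18882 and 19307 with siMCRS1, 8142, 7899.9 and 8629.9 in EPZ-6438 with NTG, and 14563 and 17787 with siMCRS1. The siMCRS1 libraries of each treatment lay above all NTG libraries, and YAP1 rose by 0.79 ± 0.12 (adjusted p = 0.00046) and 0.97 ± 0.12 (adjusted p = 9.2e-05). WWTR1 measured 3914 and 3966, then 6978, 7824 and 7549 with siMCRS1 in DMSO, and 2645, 3322 and 3089, then 4886 and 6136 with siMCRS1 in EPZ-6438. WWTR1 rose by 0.92 ± 0.12 and 0.87 ± 0.12. TEAD1 measured 1113 and 1807 in DMSO with NTG, 2355, 3766 and 4488 with siMCRS1, 1022, 1128 and 1644 in EPZ-6438 with NTG, and 2659 and 3716 with siMCRS1. The spread of TEAD1 was the widest of the members, with an SE of 0.30. TEAD1 rose by 1.27 in DMSO (fold 2.41, adjusted p = 0.0054), a call lost without DMSO NTG replicate 1 (0.92), and by 1.34 in EPZ-6438 (fold 2.54, adjusted p = 0.0032). TEAD2 measured 277 and 239 in DMSO with NTG and 930.4, 788 and 738 with siMCRS1, and rose by 1.66 in DMSO and 2.05 in EPZ-6438. TEAD3 and TEAD4 gave -0.13 and -0.20 in DMSO, which did not pass the test, and in EPZ-6438 TEAD3 fell by 0.37 (adjusted p = 0.038) and TEAD4 gave -0.32 (adjusted p = 0.053).

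LATS2 measured 1183 and 1401 in DMSO with NTG, 2499, 3493 and 2932 with siMCRS1, 1160.3, 1397 and 1266 in EPZ-6438 with NTG, and 2640.0 and 3058 with siMCRS1. The groups were widely separated, and LATS2 rose by 1.19 ± 0.15 (fold 2.29, adjusted p = 0.00014) and 1.16 ± 0.15 (fold 2.23, adjusted p = 0.00011). AMOTL2 measured 889 and 926, then 1299.8, 1875 and 1664 with siMCRS1 in DMSO, and 667, 1012 and 855, then 1245 and 1702 with siMCRS1 in EPZ-6438. AMOTL2 rose by 0.81 ± 0.20 in each, and the EPZ-6438 call was lost without EPZ-6438 siMCRS1 replicate B (0.58).

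AJUBA and AXL went the other way. AJUBA measured 7496 and 7398 in DMSO with NTG, 5486, 5517 and 5739 with siMCRS1, 6181, 6687 and 5882 in EPZ-6438 with NTG, and 5249.5 and 5157 with siMCRS1. Every siMCRS1 library was below every NTG library of either treatment. AJUBA fell by 0.42 ± 0.09 in DMSO (adjusted p = 0.0027) and by 0.26 ± 0.09 in EPZ-6438 (adjusted p = 0.025), where the call was lost without EPZ-6438 NTG replicate 2 (-0.21), EPZ-6438 siMCRS1 replicate A (-0.28) or B (-0.25), and with only the groups compared (-0.26). AXL measured 1390.2 and 1496 in DMSO with NTG, 1075, 1206 and 1382 with siMCRS1, 1122, 1355 and 1154 in EPZ-6438 with NTG, and 881 and 893 with siMCRS1. In DMSO the groups nearly touched, and in EPZ-6438 they were clear of each other. AXL fell by 0.44 ± 0.13 in EPZ-6438 (adjusted p = 0.013), a call lost without EPZ-6438 siMCRS1 replicate A (-0.43) or B (-0.45). In DMSO the difference was -0.25 (95% interval -0.53 to 0.04, adjusted p = 0.14), and equal totals gave a call (-0.48).

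**Figure D3:**
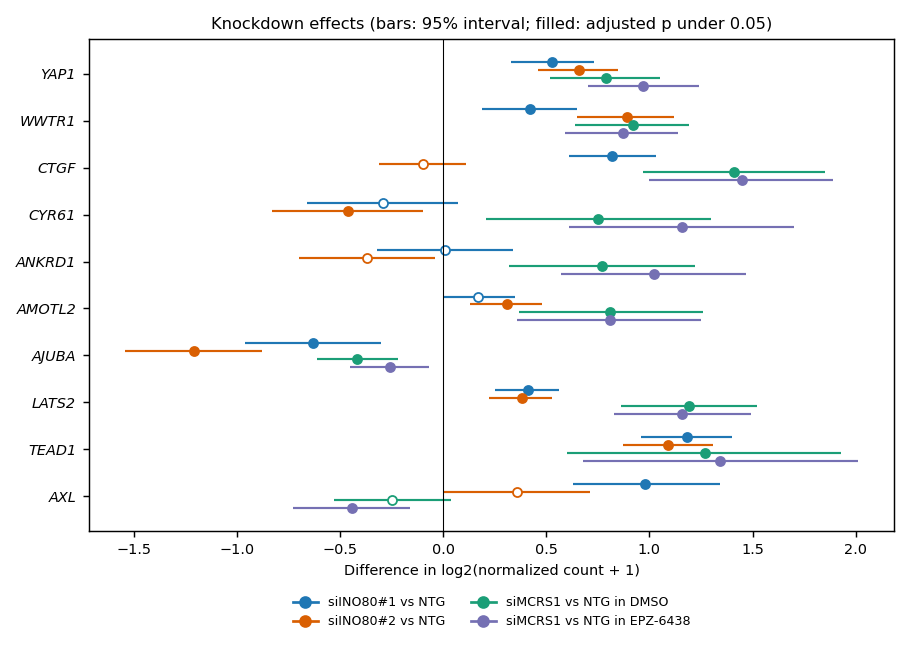
Difference in log2(normalized count + 1) between knockdown and NTG (x axis) for each member in 4 comparisons. Bars are 95% intervals, and filled points have an adjusted p under 0.05. YAP1, WWTR1, LATS2 and TEAD1 lie to the right of 0 in all 4 comparisons and AJUBA to the left, whereas CTGF, CYR61, ANKRD1 and AXL do not keep 1 side.

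Whether EPZ-6438 alters the response to siMCRS1 was tested as the difference of the siMCRS1 effects between the treatments. No member was called, and over all 14312 genes 0% were called by limma. At an unadjusted p under 0.05 there were 0 members and 336 genes. The edgeR test on recovered reads called 0 genes, and DESeq2 called 5 genes and 0 members. The estimates ranged from -0.20 for AXL (95% interval -0.60 to 0.21) to 0.40 for CYR61 (-0.37 to 1.17), and CTGF gave 0.04 (-0.59 to 0.66). Intervals that reached the size of the siMCRS1 effect in DMSO included those of CYR61, ANKRD1 (-0.39 to 0.89) and AXL. The interval of TEAD1 was the widest (-0.86 to 1.01).

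EPZ-6438 was then compared with DMSO without and with MCRS1 knockdown. In NTG cells no member passed the test in limma, which called 0.384% of all tested genes (55 genes, and 2443 at an unadjusted p under 0.05). The 5 members at an unadjusted p under 0.05 were YAP1, WWTR1, CYR61, ANKRD1 and AJUBA. DESeq2, the more liberal tool on simulated data, called 1 member, ANKRD1, among 721 genes, and edgeR called 0 members among 68 genes. In a limma fit with a replicate block, 6 members were called, all lower with EPZ-6438 (YAP1, WWTR1, CTGF, CYR61, ANKRD1 and AJUBA). That block rests on the assumption that the column numbers 1 to 3 stand for the letters A to C of the labels. With the numbers read so, all 10 libraries correlated best with their own letter. The lack of calls in the main fit thus depends on leaving this pairing out. The estimates of all 10 members were below 0, as were those of 54.0% of all tested genes. CYR61 gave -0.72 (95% interval -1.26 to -0.17, adjusted p = 0.18) and ANKRD1 -0.71 (-1.16 to -0.26, adjusted p = 0.13), with EPZ-6438 libraries below both DMSO libraries for each. The libraries of YAP1 (-0.34), WWTR1 (-0.39), AJUBA (-0.25) and AXL (-0.26) were likewise separate. Those of CTGF (-0.37, 95% interval -0.81 to 0.07), AMOTL2 (-0.12), LATS2 (-0.02) and TEAD1 (-0.20) overlapped. The share of all tested genes with separate libraries was not computed here either, so separation alone does not show an effect.

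In siMCRS1 cells no member passed the test either, and limma called 0.0908% of all tested genes (13 genes, and 1305 at an unadjusted p under 0.05). The 3 members at an unadjusted p under 0.05 were WWTR1 (-0.44), ANKRD1 (-0.46) and AXL (-0.45). DESeq2 and edgeR called 149 and 18 genes and 0 members each, and the fit with a replicate block called WWTR1 (-0.44, adjusted p = 0.040). Again all 10 estimates were below 0, against 53.8% of all tested genes. LATS2 had the estimate nearest to 0 (-0.05, 95% interval -0.38 to 0.28).

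**Figure D4:**
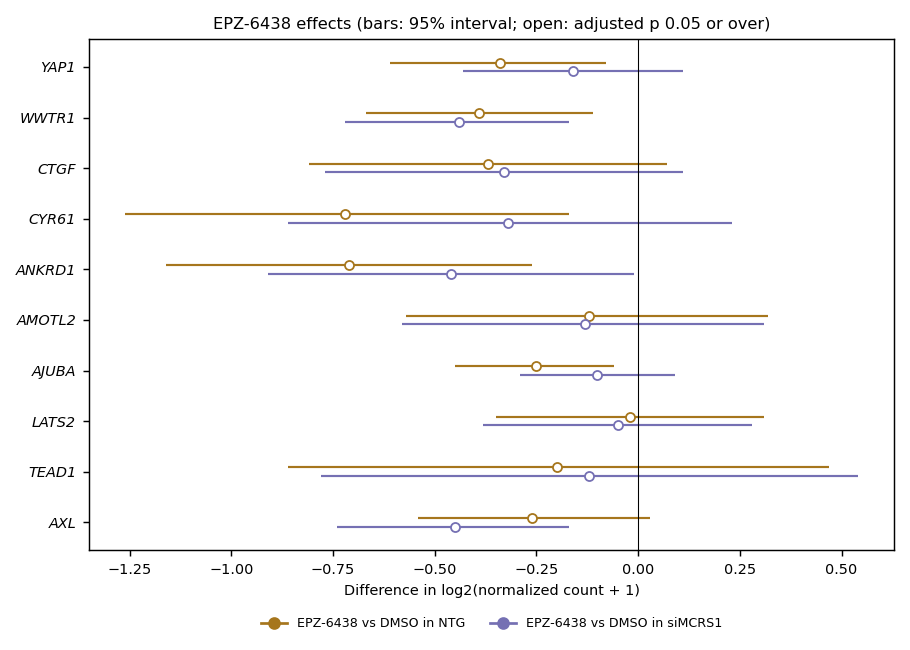
Difference in log2(normalized count + 1) between EPZ-6438 and DMSO (x axis) for each member, in NTG cells and in siMCRS1 cells. Bars are 95% intervals and all points are open because no adjusted p was under 0.05. All 20 points lie left of 0, the farthest being CYR61 and ANKRD1 in NTG cells.

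The rest of the pathway was described by lists of its genes, which hold some of the members (LATS2, AMOTL2, AJUBA and TEAD1) and share PTPN14 and AMOTL1. Among 19 Hippo kinases and adaptors, 10 rose and 3 fell with siINO80#1, 11 rose and 2 fell with siINO80#2, 11 rose and 2 fell with siMCRS1 in DMSO, and 14 rose and 1 fell in EPZ-6438. The medians were 0.32, 0.38, 0.59 and 0.63. Of all tested genes, 20.7%, 26.6%, 23.1% and 26.8% rose and 20.8%, 28.4%, 24.6% and 26.9% fell in these comparisons. Whether a list differs from all tested genes was not tested. Of the 19, the upstream kinase TAOK3 fell in all 4 comparisons (-0.78, -0.63, -0.35 and -0.40). SAV1 and MOB1B fell with siINO80#1. WWC2, a KIBRA family member, fell with siINO80#2 (-0.43) and with siMCRS1 in DMSO (-0.41). LATS1, the paralog of LATS2, rose in each (0.76, 0.89, 1.25 and 1.33). STK3 (MST2) rose in each as well (0.46, 0.48, 0.60 and 0.63), as did the upstream tumour suppressor NF2 (0.54, 0.56, 0.59 and 0.56). STK4 (MST1) passed the test with siINO80#2 (0.33) and with siMCRS1 in EPZ-6438 (0.34), and gave 0.20 and 0.31 in the other comparisons. The striatin STRN3 rose with both INO80 siRNAs (0.64 and 0.63). FRMD6, a FERM domain protein, rose with siMCRS1 (1.22 and 1.57).

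Of the genes that assist the kinases, MOB1B and SAV1 differed between the INO80 siRNAs. MOB1B, an activator of LATS kinases, fell by 0.61 with siINO80#1 and rose by 0.44 with siINO80#2, and the siRNAs differed by 1.05 (adjusted p = 0.00012). SAV1, the scaffold of MST kinases, fell by 0.55 with siINO80#1 and gave -0.05 with siINO80#2, with a difference of 0.50 between the siRNAs (adjusted p = 0.0043). MOB1A gave -0.05 and -0.02 with the INO80 siRNAs and rose with siMCRS1 (0.30 and 0.50). MOB1B rose with siMCRS1 by 0.78 in each treatment, and SAV1 gave 0.13 and 0.21, which did not pass the test.

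Of 13 YAP-binding and junction proteins, 4 rose and 2 fell with siINO80#1, and 7 rose and 1 fell with siINO80#2. With siMCRS1, 8 rose and 1 fell in DMSO, and 9 rose and 1 fell in EPZ-6438. Of all tested genes, 20.7 to 26.8% rose and 20.8 to 28.4% fell in these comparisons. PTPN14, a phosphatase that binds YAP, rose in all 4 comparisons (0.82, 0.89, 1.21 and 1.23), and so did LIMD1, a LIM protein of the AJUBA family (0.65, 0.54, 0.89 and 0.87). TP53BP2 (0.38) and BTRC (0.31) were the others that rose with siINO80#1. The genes that fell were AJUBA in each and the angiomotin AMOT with siINO80#1 (-1.48). Of 8 TEAD and VGLL genes 6 were tested. Against the same shares of all tested genes, 3 rose and 1 fell with each INO80 siRNA. With siMCRS1, 4 rose and 0 fell in DMSO and 4 rose and 1 fell in EPZ-6438. Those that rose were TEAD1, TEAD2 and VGLL4 in all 4 comparisons and VGLL3 with siMCRS1. VGLL4, which competes with YAP for TEAD factors, rose with the INO80 siRNAs (0.89 and 1.00) and with siMCRS1 (1.16 and 1.36). VGLL3, another TEAD cofactor, rose with siMCRS1 (1.22 and 1.67) and gave -0.16 and -0.31 with the INO80 siRNAs.

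Other YAP and TEAD target genes did not move as a block. Of 28 such genes 26 were tested, of which 8 rose and 3 fell with siINO80#1, and 11 rose and 5 fell with siINO80#2. With siMCRS1, 12 rose and 3 fell in DMSO, and 13 rose and 3 fell in EPZ-6438. The medians were 0.25, 0.20, 0.62 and 0.70. Of all tested genes, 20.7 to 26.8% rose and 20.8 to 28.4% fell in these comparisons. AREG, an EGF receptor ligand, rose with both INO80 siRNAs (0.95 and 1.54). THBS1, thrombospondin 1, also differed between the INO80 siRNAs. Its mean was 5310 in NTG, 12900 with siINO80#1 and 5560 with siINO80#2, and the siRNAs differed by -1.21 (adjusted p = 9.9e-05). THBS1 rose with siMCRS1 by 2.09 in DMSO and 3.14 in EPZ-6438. TGFB2, a TGF-beta ligand, rose with siMCRS1 from a mean of 0.956, under the level of 3 reads, to 47.3 in DMSO and from 8.15 to 109 in EPZ-6438. BIRC3, an inhibitor of apoptosis and also an NF-kappaB target, fell in all 4 comparisons (-1.46, -1.96, -3.24 and -3.19). BIRC5 (survivin) fell in all 4 as well (-0.53, -1.14, -0.55 and -0.47). The others that fell were DLC1 with the INO80 siRNAs (-0.53 and -0.79), IGFBP3 (-2.12) and NRG1 (-0.87) with siINO80#2, and ARHGEF17 with siMCRS1 (-0.55 and -1.02). The call of IGFBP3 is weak (limma adjusted p = 0.048, 95% interval -3.94 to -0.30). Its mean with siINO80#2 was 13.2, the lowest library (1.89) lay under the level of 3 reads, and the group overlapped NTG.

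Targets of SRF and its coactivators MRTF, which respond to actin and share genes with YAP, were listed for comparison. All 16 were tested, and 13 rose and 3 fell with siINO80#1 and 11 rose and 2 fell with siINO80#2. With siMCRS1, 8 rose and 1 fell in DMSO, and 10 rose and 1 fell in EPZ-6438. Of all tested genes, 20.7 to 26.8% rose and 20.8 to 28.4% fell in these comparisons. The focal adhesion protein zyxin (ZYX) rose in each (1.68, 1.86, 1.82 and 1.72). TGFB1I1 rose with the INO80 siRNAs (1.34 and 1.27), CNN1 (calponin) rose with siMCRS1 (3.15 and 2.59), and smooth muscle actin (ACTA2) fell in all 4 (-1.71, -1.16, -1.87 and -2.23). CALD1 fell with the INO80 siRNAs (-0.42 and -0.94) and ACTG1 with siINO80#1 (-0.34).

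**Figure D5:**
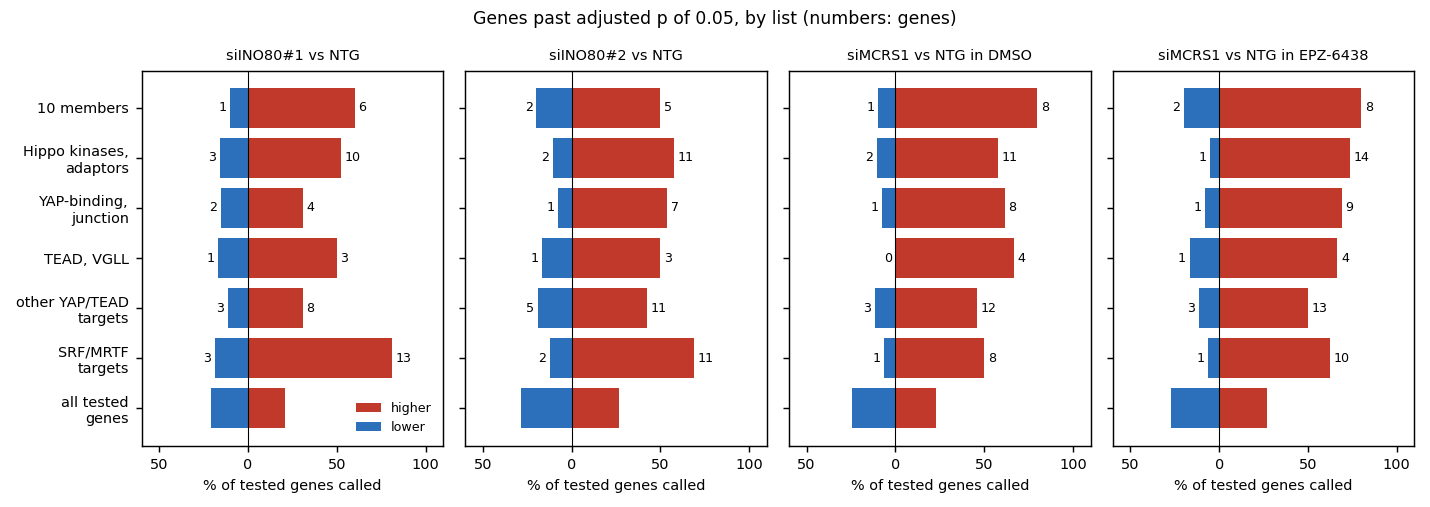
Share of the tested genes of each list with an adjusted p under 0.05 (x axis, percent), higher to the right of 0 and lower to the left, in 4 knockdown comparisons. The numbers are genes, and the lowest bar gives all tested genes, of which 20.7 to 26.8% were higher and 20.8 to 28.4% lower. The bars of higher genes of the 10 members reach 50 to 80%.

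All 10 hepatocyte and hepatoma markers were detected, and their sum took 3.04 to 5.18% of the total of INO80-experiment libraries and 2.76 to 3.79% of that of EPZ-6438-experiment libraries. The transcription factor HNF4A fell with both INO80 siRNAs (-0.45 and -1.02) and with siMCRS1 (-0.55 in each treatment). With siINO80#2, 5 of the 10 markers fell, against 28.4% of all tested genes. Besides HNF4A these markers were ALB (-0.57), APOA1 (-0.84), TTR (-0.59) and TF (-0.98). ALB rose with siMCRS1 in EPZ-6438 (0.57). Of 11 markers of other cells (blood, endothelial, stromal and basal epithelial) 6 had a mean over 10 in each experiment, though not the same 6. The sum of all 11 was 488 to 539 in NTG, 758 to 777 with siINO80#1 and 587 to 665 with siINO80#2. In DMSO this sum was 551 to 596 with NTG and 822 to 1110 with siMCRS1. In EPZ-6438 it was 460 to 642 with NTG and 1060 to 1120 with siMCRS1. KRT5 was at 0 in every library of the INO80 experiment. PDGFRB rose with both INO80 siRNAs (1.00 and 0.46) and COL1A1 with siMCRS1 (1.25 and 2.91), while with siINO80#2 PECAM1 rose (0.49) and COL1A1 fell (-0.63). The part of these markers in the results was not tested, and in bulk libraries fewer cells of a kind and less RNA per cell cannot be told apart. The use of strand in counting is not given in the sources used here, and YAP1, WWTR1, CTGF and AXL overlap an exon on the opposite strand, while AMOTL2 and AJUBA overlap another gene model on their own strand.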

How the data were processed

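mRNA libraries of 19 HepG2 samples were analysed (9 in the INO80 experiment and 10 in the EPZ-6438 experiment). For each experiment the authors deposited a table of signal values, namely gene counts after division by the size factor of the library. Per the labels, a stranded Kapa mRNA kit was used, and the submitters' processing notes name kallisto, DESeq2 and GRCh38 without their roles. The step of each library gave whole reads for 100% of values (within 0.01 of a whole number), with totals of 17093574 to 47397233. Groups came from the labels. In the EPZ-6438 table, columns were assigned to groups by name, and their replicate numbers are those of the column names.

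Values were taken as log2(value + 1), and genes with a mean of at least 10 (14034 and 14312) were fitted with limma 3.58.1 (R 4.3.3), using lmFit, then eBayes with its trend option. A single fit held every group of the experiment, with Benjamini-Hochberg adjustment over all tested genes and a threshold of 0.05. Alternatives were other pseudocounts and filters, equal totals, quantile normalization, edgeR 4.0.16 and DESeq2 1.42.0 on recovered reads, no trend, only the groups compared, a replicate block and each library left out. Replicates were further apart than sampling noise (chi-square per degree of freedom 9.45 to 121), and none was merged. The scripts were tested on simulated data, on which DESeq2 was the more liberal tool in its calls. Transcript lengths and exon overlaps are from GENCODE v44 lifted to GRCh37, and promoters are from RefSeq (GRCh38.p14). Tables were made with Python 3.11.15, pandas 2.3.3 and numpy 2.4.6, and figures with matplotlib 3.10.9.

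The members and the other gene lists were chosen with earlier results of these data known. Genes named from the other lists were those called in both siINO80 or both siMCRS1 comparisons in the same direction with the largest smaller effect (up to 3 per list), plus all TEAD genes and the core Hippo genes. Others were named after their values were seen, where a count of 5 or fewer called for names.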

Additional observations from a re-analysis of the deposited data

Results flagged for a closer look

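For 4 members the siRNAs against INO80 differed from each other by the limma test of siINO80#2 against siINO80#1, although both were compared with the same NTG libraries. WWTR1 was higher with siINO80#2 by 0.46 on the log2 scale. CTGF differed by -0.92, AJUBA by -0.58 (-0.36 without siINO80#2 replicate C) and AXL by -0.63, all lower with siINO80#2. The adjusted p was 0.011 for WWTR1, 0.00021 for CTGF and 0.019 for AJUBA and for AXL. The libraries of the siRNA groups did not overlap for any of these genes. The genes were picked by this test on the same libraries, so the separation adds no support.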

How the results depend on the processing

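Of 1640 values of a member under an alternative, 1548 kept their direction and their side of the threshold, 26 lost a call, 21 gained one and 45 changed sign. Member counts ranged over all alternatives from 7 to 8 (siINO80#1) and 6 to 9 (siINO80#2), from 6 to 9 for siMCRS1 in DMSO, and from 7 to 10 in EPZ-6438. Between the siRNAs, leaving out 1 library gave 2 to 5 members and 1948 to 3481 genes (3096 with all). For siMCRS1 in EPZ-6438, leaving out 1 library gave 5070 to 7600 genes (7686 with all).

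Counts of genes for EPZ-6438 were the least stable of the counts computed. In NTG cells (55) they were 20 without a filter, 85 with quantile normalization, 721 with DESeq2 (with 1 member), 19 without the trend and 2 to 71 with 1 library left out. In siMCRS1 cells (13) they were 4 without a filter, 149 with DESeq2, 7 without the trend, 0 with only the groups compared and 0 to 26 with 1 library left out. For the difference of the siMCRS1 effects (0) they were 5 with DESeq2 and 0 to 3 with 1 library left out. The cause was not tested.

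No value that changed sign had passed the test. ANKRD1 with siINO80#1 became -0.07 with equal totals and -0.04 with quantile normalization, and LATS2 for EPZ-6438 in NTG cells became 0.01 with both. For the difference of the siMCRS1 effects, AMOTL2 became 0.02 with quantile normalization, and CTGF -0.02 with edgeR and -0.01 with DESeq2. With 1 library left out, ANKRD1 with siINO80#1 ranged from -0.11 to 0.07. For EPZ-6438 in NTG cells the ranges were -0.26 to 0.04 (AMOTL2), -0.14 to 0.10 (LATS2) and -0.55 to 0.15 (TEAD1). In siMCRS1 cells they were -0.36 to 0.09 (AMOTL2), -0.68 to 0.05 (CYR61), -0.17 to 0.07 (LATS2) and -0.39 to 0.12 (TEAD1). For the difference of effects they were -0.23 to 0.22 (AMOTL2), -0.08 to 0.24 (CTGF), -0.16 to 0.09 (LATS2), -0.27 to 0.43 (TEAD1) and -0.22 to 0.11 (WWTR1).

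Same-lettered libraries of the INO80 experiment had a mean correlation of deviations of 0.10 (-0.08 to 0.26, 5 of 9 pairs over 0.1). For other letters the mean was -0.05, and 8 of 9 libraries correlated best with their own letter. These values go with some pairing by letter, but the letter was planned as a block only in an alternative fit. That limma fit added calls for CYR61 with siINO80#1 (adjusted p = 0.049), and for ANKRD1 (adjusted p = 0.032) and AXL (adjusted p = 0.024) with siINO80#2. With the letter as a replicate block, 6327, 8127 and 3590 genes were called for siINO80#1, siINO80#2 and the siRNAs against each other. In the EPZ-6438 experiment a replicate block needs the column numbers 1 to 3 read as the letters A to C of the labels, an assumption made after seeing the data. Of 12 pairs 11 had a correlation over 0.1 (-0.02 to 0.30), and all 10 libraries correlated best with their own letter. The mean was 0.2 for the same letter and -0.1 for other letters. These values go with paired libraries, but the main fit held no block because the labels do not tie the numbers to letters. The results for EPZ-6438 depend on this choice. This block gave 1779 genes and 6 members for EPZ-6438 in NTG cells, 100 genes and 1 member in siMCRS1 cells, 1 gene for the difference of the siMCRS1 effects, and 8219 and 9076 genes for siMCRS1 in DMSO and EPZ-6438. TEAD1 for EPZ-6438 in siMCRS1 cells became 0.07, and for the difference of effects WWTR1 became 0.01, AMOTL2 0.12 and LATS2 0.05. Groups of 2 or 3 libraries limit the precision of each value.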

Other observations

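Patterns most like those of the main target genes were found by Pearson's r of log2 values over the libraries of an experiment, among genes with a mean of at least 50. These are descriptions over libraries that share treatments and scaling. In the INO80 experiment (9 libraries, 11582 genes), the genes most like CTGF were PTBP1 (r = 0.987), DRAM1 (0.984) and PLAG1 (0.977), and those most like CYR61 were ZNF678 (0.935), GYS1 (0.903) and SMARCA2 (0.885). CTGF and CYR61 had an r of -0.001 with each other there. In the EPZ-6438 experiment (10 libraries, 11897 genes), the genes most like CTGF were ZFP36L1 (0.995), IER3 (0.995) and SPRY4 (0.993), and those most like CYR61 were ANKRD1 (0.991), EPS8 (0.990) and MOSPD1 (0.987). CTGF and CYR61 had an r of 0.928 with each other in that experiment.

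Among the members, CTGF was most like AXL in the INO80 experiment (r = 0.754), and AXL had an r of -0.329 with CTGF in the EPZ-6438 experiment. AJUBA had an r of -0.643 with CTGF in the EPZ-6438 experiment and 0.110 in the INO80 experiment.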
